A study of Mus musculus with 6 samples.

Results

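Cadherins and non-clustered protocadherins were examined in mouse Müllerian duct mesenchyme, the connective tissue that surrounds the embryonic precursor of the oviduct and uterus. Members were all gene rows whose symbol was Cdh or Pcdh followed by a number alone, without Cdh1 and Cdh5, which mark epithelium and endothelium. This gave 32 of the 37991 genes in the count files. They comprised 4 type I cadherins, 12 type II cadherins, 5 atypical cadherins and 11 protocadherins. The female and the male group had 3 libraries each, all from embryos at embryonic day 14.5 with the genotype Amhr2Cre/+, R26R YFP/+ on a C57BL/6J x 129/SvEv mixed background. All embryos thus carried 1 Cre allele at the receptor locus of anti-Müllerian hormone, in both sexes. Cells were sorted for YFP, so the libraries hold whichever cells had Cre activity or descend from cells that had it, and each library pooled 2 to 7 embryos. The labels call the libraries biological replicates, and p-values measure the spread between these pools. The series title concerns the regression of the duct under this hormone, which the testis secretes, and the comparison asked which genes differed between male and female mesenchyme.

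Cadherins are transmembrane proteins whose extracellular repeats bind calcium and hold neighbouring cells together. Type I and type II cadherins, called classical, bind p120 catenin and beta-catenin through the cytoplasmic tail, and alpha-catenin links that complex to actin. Cells that express different classical cadherins tend to sort apart, and mesenchymal cells commonly use N-cadherin (Cdh2) and cadherin-11 (Cdh11). Atypical cadherins lack the catenin-binding tail or have a very different architecture. Non-clustered protocadherins adhere weakly and are best known from the nervous system, where several regulate cell sorting and actin.

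Libraries held 22511872 to 24749859 counts in genes. Values are CPM, counts relative to the library total as scaled by the trimmed mean of M-values (TMM), and fold changes are log2 male over female with their standard errors. Sex-linked genes went with the labels: Ddx3y, on the Y chromosome, was at 17.1 to 159.1 CPM in male and at most 0.0492 CPM in female libraries. Of the 8 markers listed for this mesenchyme, 7 were tested, with summed levels of 2946 to 4195 CPM in female and 4737 to 4847 CPM in male libraries, and Lhx2, the eighth, was near 0. Amhr2 itself ranged from 160.1 to 784.1 CPM. Replicates 1 and 2 stood apart within each sex, a difference described for the members below.

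Expression of the family was dominated by a few genes. Per kilobase of the longest transcript, the scale used here wherever genes are compared, Cdh11 had the highest mean, at 121.8 ± 64.8 CPM per kilobase in female and 118.2 ± 86.8 in male libraries (SD, n = 3 each). Pcdh18 followed at 54.0 ± 18.5 and 38.3 ± 17.4. Its SD range overlapped that of Cdh11 in both sexes, but within every library Cdh11 was the higher. Cdh3, Cdh2 and Pcdh1 formed a further tier, at 24.1 ± 12.5, 22.4 ± 9.34 and 12.7 ± 6.33 CPM per kilobase in female and 11.1 ± 5.45, 15.4 ± 7.34 and 20.6 ± 9.79 in male libraries. Their order differed between the sexes, but their SD ranges overlapped in each. Cdh24 had 6.84 ± 0.785 in female and 5.04 ± 0.604 in male libraries, and all other members had means below 4 CPM per kilobase. The cadherin associated with epithelium, Cdh1, was at 0.625 to 1.60 CPM across the 6 libraries, and Cdh5, the vascular endothelial cadherin, at 1.20 to 2.52 CPM.

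**Figure D1:**
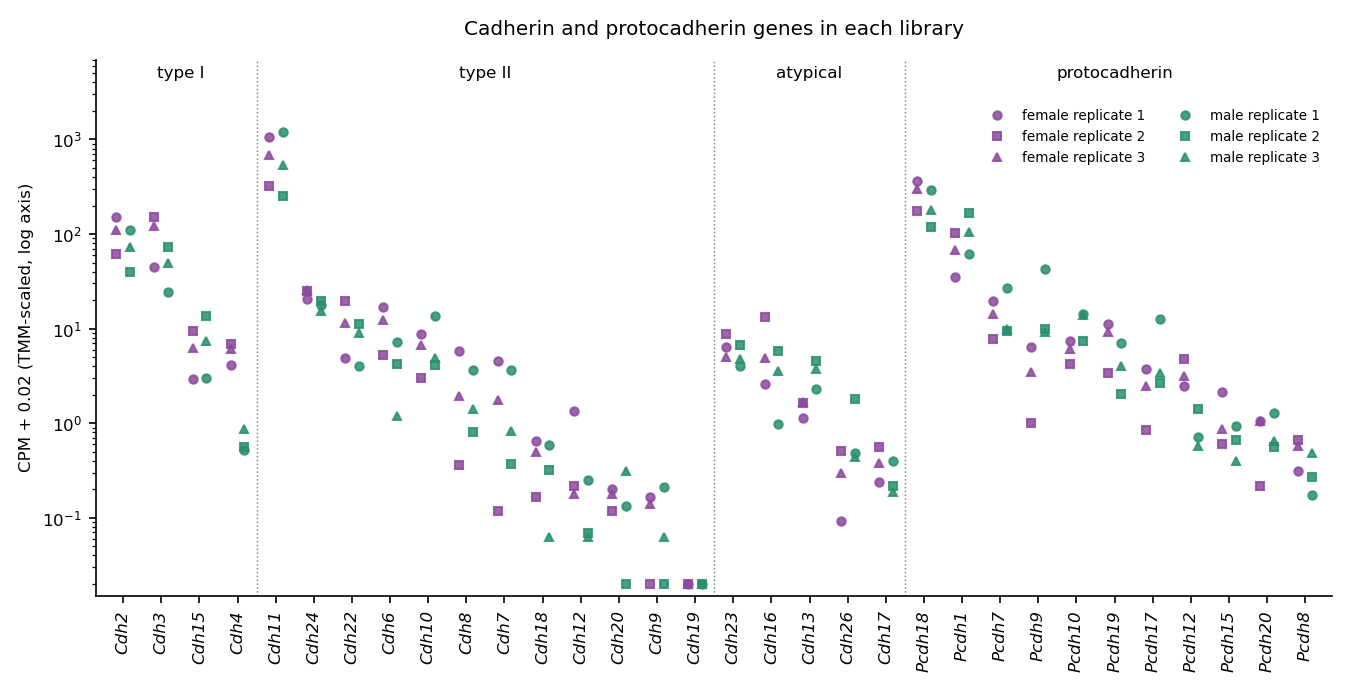
Levels of the 32 members in each library, as TMM-scaled CPM plus 0.02 on a log axis, grouped by class and ordered within a class by mean CPM. Purple points are female and green points male libraries, and shapes mark replicates. Points on the bottom line have 0 counts. Cdh11 and Pcdh18 lie highest, the sexes separate clearly for Cdh4, and replicates 1 and 2 lie apart for many genes.

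Of the 32 members, 27 had enough counts for the test, and 1 of these, the type I cadherin Cdh4, was lower in male mesenchyme past the threshold (edgeR quasi-likelihood test, adjusted p threshold 0.05). Among all 15227 genes tested, 0.387% were lower and 0.841% higher in male by that rule, 1.23% together. No member was higher past the threshold by edgeR. At an unadjusted p under 0.05, 3 members were higher (Cdh13, Pcdh9 and Pcdh10) and 2 lower (Cdh4 and Pcdh12), where 4.68% of all genes tested were higher and 4.51% lower. DESeq2 called 1 member higher and 2 lower, where it called 2.92% of all genes higher and 2.15% lower. With limma-voom 0 members were higher and 1 lower, where 1.06% and 0.519% of all genes were. Male and female libraries did not overlap in 3 members higher in male (Cdh13, Pcdh9 and Pcdh10) and 3 lower (Cdh4, Cdh24 and Pcdh12), a separation seen upwards in 6.47% and downwards in 7.27% of all genes tested. The median log2 fold change was −0.44 over the 27 members and −0.01 over all genes tested, with negative values in 17 of 27 members and in 50.5% of all genes. The median absolute log2 fold change was 0.70 over the members and 0.31 over all genes.

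**Figure D2:**
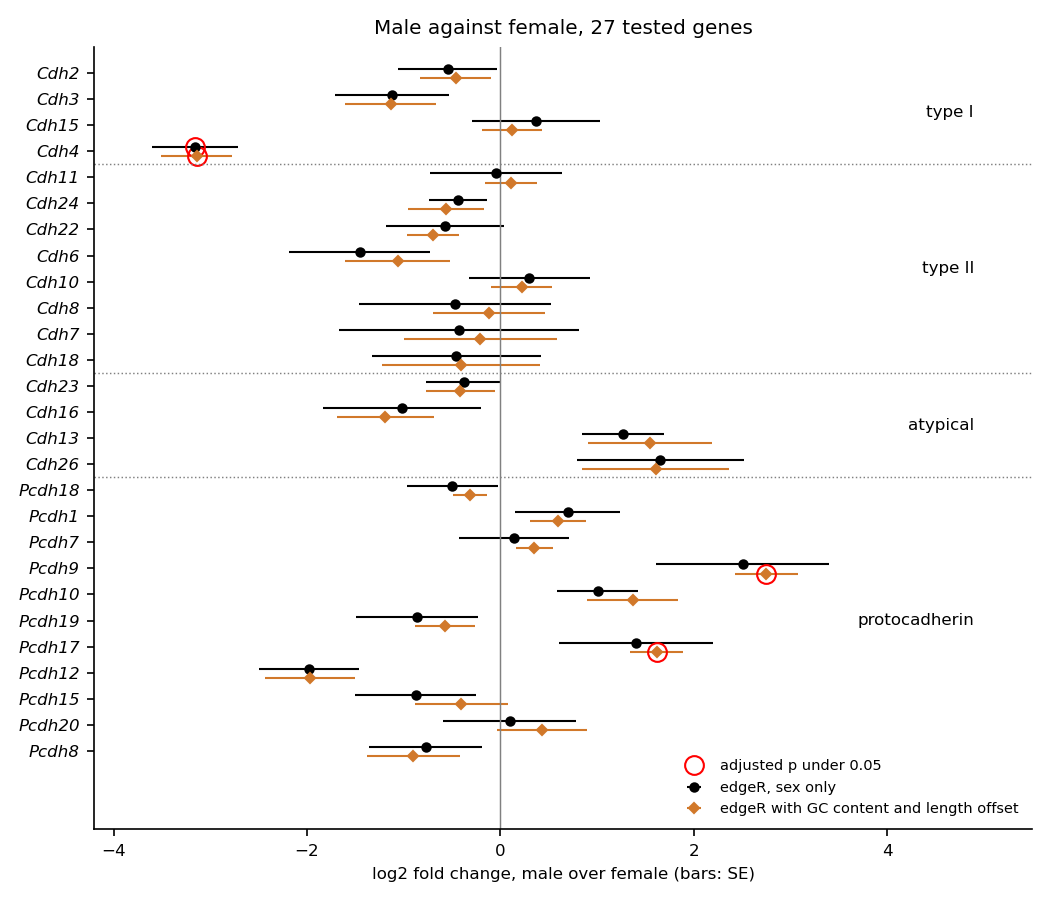
Log2 fold change of male over female for the 27 tested members, by class, with bars for the standard error. Black circles show edgeR with sex as the only term and orange diamonds the same test with an offset for GC content and transcript length. Red rings mark adjusted p under 0.05, on Cdh4 in both fits and on Pcdh9 and Pcdh17 with the offset.

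Among type I cadherins, Cdh4 (ENSMUSG00000000305) separated the sexes furthest. Cdh4 encodes R-cadherin, described first in retina and also expressed in developing kidney and muscle. It was at 4.08, 6.83 and 6.04 CPM in female replicates 1 to 3 and at 0.497, 0.544 and 0.843 CPM in male replicates 1 to 3. Every male library lay below every female library, on 111 to 151 counts per female and 11 to 20 counts per male library. The mean fell from 5.65 ± 1.42 to 0.628 ± 0.187 CPM, 8.93-fold lower in the fit, where the log2 fold change was −3.16 (SE 0.44 and edgeR adjusted p = 0.0286). Over 18 alternative settings it ranged from −3.41 to −2.92 and passed the threshold in 10 of them. Leaving out any single library ended the call, with edgeR adjusted p-values from 0.0555 without male replicate 1 to 0.220 without female replicate 3. The call was also lost without replicate 2 or replicate 3 in both sexes (edgeR adjusted p = 0.213 and 0.99998). Without male replicate 1 the fit called 1.12% of all genes tested. Without any other single library it called at most 0.0905%, and without replicate 2 or 3 in both sexes 0%.

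Cdh3, which encodes P-cadherin, an epithelial and placental type I cadherin, was at 44.5, 150.01 and 121.8 CPM in female and 24.4, 72.1 and 48.9 CPM in male replicates 1 to 3. Male values were lower on average, but female replicate 1 lay below male replicates 2 and 3. The log2 fold change was −1.12 (SE 0.59 and edgeR adjusted p = 0.771). Cdh2, the N-cadherin gene, was at 152.3, 62.0 and 111.5 CPM in female and 110.7, 39.6 and 73.1 CPM in male libraries, and the log2 fold change was −0.54 (SE 0.51 and edgeR adjusted p = 0.99997). The sexes overlapped here as well, since the spread within a sex, 2.46-fold in female and 2.79-fold in male libraries, was wider than the difference between the means. Cdh15, which encodes M-cadherin of muscle precursors, had 2.90 to 9.39 CPM in female and 3.02 to 13.5 CPM in male libraries and a log2 fold change of 0.37 (SE 0.66).

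Cdh2 and Cdh3 differed between replicates in opposite directions. Cdh2 was highest in replicate 1 and lowest in replicate 2 of each sex, and Cdh3 was lowest in replicate 1 and highest in replicate 2. The ratio of Cdh3 to Cdh2 per kilobase was therefore 0.323, 2.67 and 1.21 in female and 0.243, 2.01 and 0.738 in male libraries, so that which of the pair was more abundant depended on the library in both sexes. Per kilobase of the union of exons the ratio was 0.538, 4.45 and 2.01 in female and 0.405, 3.35 and 1.23 in male libraries, which puts Cdh3 rather than Cdh2 first in male replicate 3 and on average over all libraries. Their levels partly offset each other in the sum of the 4 type I genes. That sum was 43.1, 51.0 and 53.6 CPM per kilobase in female and 29.4, 28.9 and 28.7 in male libraries. The male sums all lay below the female sums, a separation seen in 7.27% of all single genes tested. With the union of exons as gene length the sums were 30.5, 45.7 and 44.3 in female and 20.3, 25.6 and 22.6 in male libraries, again without overlap. No test was made of this sum. Cdh4 contributed 1.48% to 2.10% of it in female and 0.265% to 0.460% in male libraries, so the level of the group was set mostly by Cdh2 and Cdh3. The sums of type II, of atypical and of protocadherin genes overlapped between the sexes with either gene length.

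**Figure D3:**
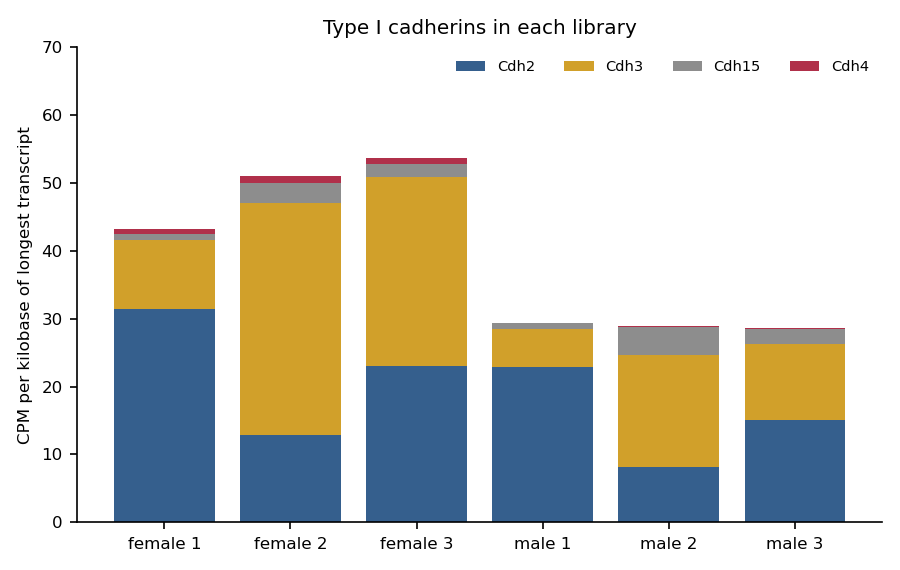
Type I cadherins in each of the 6 libraries, as stacked CPM per kilobase of the longest transcript, with bars starting at 0. Totals are 43.1 to 53.6 in female and 28.7 to 29.4 in male libraries. Cdh2 takes the larger part in replicate 1 of each sex and Cdh3 in replicate 2, and Cdh4 is a thin band that is hardly visible in males.

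Type II cadherins were represented mainly by Cdh11, the mesenchymal cadherin first described in osteoblasts. Cdh11 was at 1058, 325.6 and 680.6 CPM in female and 1207, 251.7 and 542.5 CPM in male replicates 1 to 3. The sexes overlapped fully, and replicate 1 exceeded replicate 2 by 3.25-fold in female and 4.80-fold in male libraries. The log2 fold change was −0.04 (SE 0.68 and edgeR adjusted p = 0.99997), and its sign changed under 6 of 18 alternatives. On average Cdh11 made up 87.4% of the type II sum per kilobase in female and 88.9% in male libraries.

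Of the 12 type II genes 8 were tested, and none passed in either direction with sex as the only term by edgeR, DESeq2 or limma-voom, nor had any an unadjusted edgeR p under 0.05. Cdh24, whose product binds catenins, was at 20.7, 25.0 and 25.8 CPM in female and 17.7, 19.6 and 15.4 CPM in male libraries. These ranges did not overlap, but the difference was small, and the log2 fold change was −0.44 (SE 0.30 and edgeR adjusted p = 0.988). Cdh6, a kidney cadherin of developing nephrons, was at 17.0, 5.21 and 12.4 CPM in female and 7.23, 4.20 and 1.18 CPM in male libraries. Its sexes overlapped, because male replicate 1 lay above female replicate 2, and the log2 fold change was −1.46 (SE 0.73 and edgeR adjusted p = 0.732). Cdh22, a cadherin named for pituitary and brain, was at 4.92, 19.4 and 11.6 CPM in female and 3.98, 11.1 and 9.06 CPM in male libraries, with a log2 fold change of −0.57 (SE 0.61). Cdh10, Cdh8, Cdh7 and Cdh18, known mainly from neurons, had log2 fold changes of 0.30, −0.47, −0.43 and −0.46 with standard errors from 0.62 to 1.24. Cdh7 showed the widest spread of any tested member within a sex, 46.0-fold between female replicates 1 and 2, at 4.52 and 0.0983 CPM.

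The other 4 type II genes were too low for the test. Cdh19, a cadherin of neural crest and Schwann cell precursors, had 0 counts in all 6 libraries, which allows up to 0.110 to 0.148 CPM per library at a limit of 3 counts, for counting error only. This limit holds only if reads could be assigned to that gene in the annotation counted, which is not known. Cdh9 and Cdh20 held 7 and 11 counts over the female and 6 and 10 over the male libraries. Cdh12 held 44 female and 8 male counts, but 36 of the female counts came from replicate 1 alone, and female replicates 2 and 3 held 4 each.

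The atypical cadherins were low. Cdh13 encodes T-cadherin, which has no cytoplasmic tail, is held in the membrane by a lipid anchor and binds adiponectin. It was at 1.10, 1.62 and 1.64 CPM in female and 2.29, 4.50 and 3.75 CPM in male libraries. All male libraries lay above all female ones, by 2.41-fold in the fit. The log2 fold change of 1.27 (SE 0.42) did not pass over all genes (edgeR adjusted p = 0.329). Cdh26 was at 0.0735, 0.492 and 0.280 CPM in female and 0.459, 1.78 and 0.421 CPM in male libraries, with overlap and a log2 fold change of 1.66 (SE 0.86). It rests on 2 to 36 counts per library.

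Cdh16, the kidney-specific cadherin of tubular epithelium, was at 2.61, 13.3 and 4.92 CPM in female and 0.956, 5.78 and 3.54 CPM in male libraries. Its sexes overlapped, and its log2 fold change was −1.02 (SE 0.82 and edgeR adjusted p = 0.99997). The summed level of 12 duct epithelium markers, most of it the keratins Krt8, Krt18 and Krt19, differed between replicates in the same way, at 204.5, 725.3 and 400.8 CPM in female and 150.4, 498.4 and 444.9 CPM in male libraries. The GC content of Cdh16 was 56.1% and that of these keratins 56.4% to 57.6%. Ratios between replicates followed GC content over all genes, as described below. Epcam, another of these markers, was at 10.1, 15.5 and 15.4 CPM in female replicates 1 to 3. It was at 2.52, 2.13 and 3.08 CPM in male replicates 1 to 3. Only its female values were thus lower in replicate 1 than in replicate 2. Cdh1, Cldn6, Cldn7 and Pax8, the other tested markers of the list, were lower in replicate 1 than in replicate 2 of each sex. The part of epithelial RNA in the Cdh16 values was not tested. Cdh23, a component of the tip links of inner ear hair cells, had 5.001 to 8.80 CPM in female and 4.05 to 6.67 CPM in male libraries and a log2 fold change of −0.38 (SE 0.39). Cdh17, of liver and intestine, held 26 female and 18 male counts and was not tested.

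Among protocadherins all 11 genes were tested and none passed by edgeR with sex as the only term. Pcdh9 (ENSMUSG00000055421), a protocadherin of brain circuits, showed the largest difference upwards of any member. It was at 6.39, 0.983 and 3.48 CPM in female and 42.8, 9.94 and 9.23 CPM in male replicates 1 to 3. The lowest male library lay above the highest female one, although values within each sex differed by 6.501-fold and 4.634-fold. Female libraries had a mean of 3.62 ± 2.71 CPM and male libraries one of 20.6 ± 19.2, and the log2 fold change was 2.51 (SE 0.90 and edgeR adjusted p = 0.400). DESeq2 called it higher in male (adjusted p = 0.0437). With an offset for GC content and transcript length its SE fell to 0.33 and it rose past the threshold, with 2.75 on the log2 scale (edgeR adjusted p = 0.00525).

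Pcdh17, a protocadherin of axons and synapses, was the only other member that rose with that offset. It was at 3.75, 0.836 and 2.44 CPM in female and 12.6, 2.67 and 3.41 CPM in male libraries, and the sexes overlapped because male replicates 2 and 3 lay below female replicate 1. Its log2 fold change was 1.41 (SE 0.79 and edgeR adjusted p = 0.826) without and 1.62 (SE 0.27 and edgeR adjusted p = 0.0178) with the offset. In the fit with the offset 2 of 27 members rose and 1, Cdh4, fell, where 3.02% of all genes rose and 2.92% fell. Both differences were smaller without male replicate 1 in the fit without the offset, at 1.40 on the log2 scale for Pcdh9 and 0.37 for Pcdh17. Without female replicate 1 that of Pcdh9 was 3.20 and that of Pcdh17 1.92.

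Pcdh10, whose product binds a regulator of actin assembly, was at 7.38, 4.18 and 6.04 CPM in female and 14.1, 7.41 and 13.9 CPM in male libraries. The ranges touched closely without overlap, the lowest male value being just above the highest female one. Its log2 fold change was 1.01 (SE 0.41 and edgeR adjusted p = 0.525). Pcdh12, an endothelial protocadherin also found in placenta, was at 2.42, 4.77 and 3.16 CPM in female and 0.688, 1.38 and 0.548 CPM in male libraries, with every male library below every female one. Its log2 fold change was −1.98 (SE 0.52 and edgeR adjusted p = 0.179), and DESeq2 called it lower (adjusted p = 0.0199). Other endothelial genes did not share 1 direction. Cdh5 was at 0.33 (SE 0.42) and Pecam1 at −0.40 (SE 0.41) on the log2 scale, Esam and Erg at −1.61 and −2.52, and Kdr at 1.65, none past the threshold by edgeR with sex as the only term. DESeq2 called Erg and Esam lower and Kdr higher (adjusted p = 0.00402, 0.0257 and 0.0271), and the fit with the GC content and length offset called Esam lower and Kdr higher (edgeR adjusted p = 0.00983 and 0.0109). These markers were named after their values were seen. The summed level of 9 endothelial markers was 61.2 to 103.6 CPM in female and 147.2 to 331.0 CPM in male libraries, most of it Kdr, and its part in the Pcdh12 values was not tested. In sorted pools, fewer cells of a type and less RNA per cell cannot be told apart.

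The abundant protocadherins overlapped between the sexes. Pcdh18, whose product binds the adaptor Dab1, was at 360.8, 174.3 and 302.2 CPM in female and 295.3, 118.3 and 180.1 CPM in male libraries (log2 fold change −0.50, SE 0.47). It made up 73.9% of the protocadherin sum per kilobase in female and 55.8% in male libraries on average. Pcdh1, known from airway epithelium, was at 34.9, 103.5 and 68.1 CPM in female and 61.5, 167.1 and 105.5 CPM in male libraries, with a log2 fold change of 0.70 (SE 0.54). Pcdh19, an X-linked protocadherin, was at 11.2, 3.34 and 9.28 CPM in female and 7.04, 2.03 and 4.04 CPM in male libraries, with a log2 fold change of −0.86 (SE 0.63). None of the 3 passed (edgeR adjusted p = 0.99997 each). Pcdh7, Pcdh15, Pcdh20 and Pcdh8 had log2 fold changes of 0.14, −0.88, 0.10 and −0.77 with standard errors from 0.57 to 0.69. Pcdh15, which pairs with Cdh23 in tip links, had 0.590 to 2.13 CPM in female and 0.379 to 0.918 CPM in male libraries, so both tip link genes were detected at low level in each library. Of the exon bases of Pcdh7, 21.1% are shared with a gene transcribed the other way, whose reads could not be separated from its own because the kit does not mark strand. Cdh4, Pcdh9, Cdh13, Pcdh12 and Cdh24 share no exon bases with another annotated gene.

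Promoter sequences from RefSeq (build GRCm38.p6), covering 250 bases before to 50 bases after the gene start, matched 22 of the 32 members. They are shown for 3 members whose male and female libraries did not overlap, Pcdh9 and Pcdh10 on the higher side and Cdh24 on the lower side. Cdh4, the only member called in the main fit, had no promoter entry. Cdh13 and Pcdh12, which did not overlap either, had no entry or lay on a chromosome that was left out. Capitals mark GC boxes (GGGCGG on either strand), an element recognised by several transcription factors of the SP family. Osterix, named in the series title, belongs to that family, and whether it binds these stretches was not tested. The Pcdh9 window lies at chr14:93890630-93890929 (minus strand), the Pcdh10 window at chr3:45378148-45378447 (plus strand) and the Cdh24 window at chr14:54641315-54641614 (minus strand).
Pcdh9: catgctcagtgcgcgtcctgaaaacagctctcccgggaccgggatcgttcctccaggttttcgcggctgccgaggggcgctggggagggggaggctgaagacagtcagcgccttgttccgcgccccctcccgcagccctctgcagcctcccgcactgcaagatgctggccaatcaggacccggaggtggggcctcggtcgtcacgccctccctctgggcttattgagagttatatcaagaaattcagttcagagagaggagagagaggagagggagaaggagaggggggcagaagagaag
Pcdh10: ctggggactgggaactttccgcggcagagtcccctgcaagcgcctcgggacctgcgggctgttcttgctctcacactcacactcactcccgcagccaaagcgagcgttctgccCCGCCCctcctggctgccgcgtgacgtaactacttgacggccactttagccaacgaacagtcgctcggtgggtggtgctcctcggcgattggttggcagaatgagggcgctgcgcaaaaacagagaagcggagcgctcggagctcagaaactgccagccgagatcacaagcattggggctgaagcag
Cdh24: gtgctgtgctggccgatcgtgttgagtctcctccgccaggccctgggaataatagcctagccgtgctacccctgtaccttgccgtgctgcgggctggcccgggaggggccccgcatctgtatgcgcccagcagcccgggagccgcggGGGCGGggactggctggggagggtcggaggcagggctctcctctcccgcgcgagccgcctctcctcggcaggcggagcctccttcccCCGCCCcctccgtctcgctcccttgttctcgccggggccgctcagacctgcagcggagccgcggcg
The Cdh24 window held 2 GC boxes, the Pcdh10 window 1 and the Pcdh9 window 0. Only the first promoter entry of each gene was searched, and Pcdh9 had 2 entries. A GC box occurred in 9 of the 22 member promoters (40.9%) and in 35.9% of 27025 genes with a promoter entry. The E-box CAGGTG, recognised by SNAI and ZEB repressors of cadherin genes, occurred in 3 of 22 (Cdh7, Pcdh7 and Pcdh15) and in 20.0% of all genes, and in none of the 3 windows shown. The homeodomain core TAATTA occurred in 0 of 22 and in 5.31% of all genes, and TATAAA in 2 of 22 (Pcdh8 and Pcdh15) and in 14.2%. No 2 of these motifs share letters in a way that lets 1 match count for both. The 3 windows are rich in GC, at 73.3% for Cdh24, 62.7% for Pcdh9 and 62.3% for Pcdh10.

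Differences between replicates affected the members in step. Replicate 1 was higher than replicate 2 in both sexes for 15 of 27 tested members and lower in both for the other 12, so the direction was the same in female and male libraries for all 27. Across the 27 members, the log2 ratio of replicate 1 to replicate 2 correlated with transcript GC content at Pearson r = −0.78 and Spearman rho = −0.77 in female and −0.75 and −0.70 in male libraries. Across the 14674 tested genes with a GC value it was −0.67 and −0.68 in female and −0.71 and −0.72 in male libraries. These are descriptions over genes of the same libraries, and genes are not independent replicates. Members of low GC content, such as Cdh7 (42.3%), Pcdh9 (42.6%) and Cdh11 (44.9%), were higher in replicate 1, and those of high GC content, such as Cdh22 (62.7%), Pcdh1 (60.7%) and Cdh16 (56.1%), were higher in replicate 2. With the offset for GC content and length the median SE of the members' log2 fold change was 0.40 in place of 0.62. Cdh4 kept its call with the offset, at a log2 fold change of −3.14 (SE 0.37 and edgeR adjusted p = 0.00473).

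**Figure D4:**
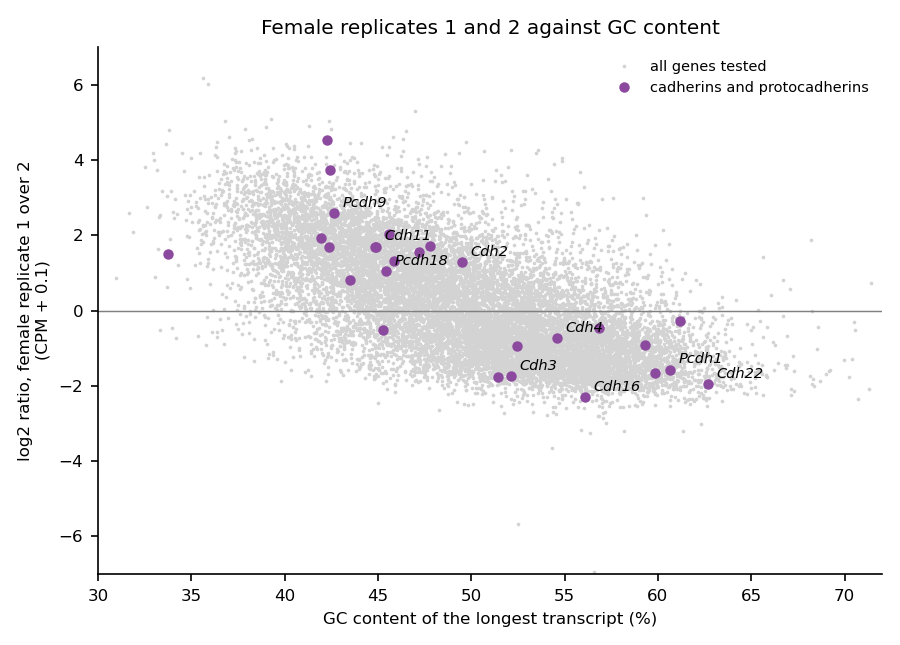
Log2 ratio of female replicate 1 over female replicate 2 (CPM plus 0.1) against the GC content of each gene's longest transcript. Purple points are the 27 tested members and grey points all tested genes with a GC value. Members below about 50% GC lie mostly above 0 and the others below it, along the trend of all genes.

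Genes that work with cadherins were read from fixed lists, and none of the 48 tested genes passed the threshold by edgeR with sex as the only term, 10 of them having an unadjusted p under 0.05. DESeq2 called 4 higher and 3 lower, limma-voom 0 and 0, and edgeR with the GC content and length offset 5 and 4. Of all genes tested 9.18% had an unadjusted p under 0.05, and DESeq2 called 5.06%, limma-voom 1.58% and the fit with the offset 5.94%. Of 15 catenins and other partners of the cadherin tail, 15 were tested, 7 with positive and 8 with negative log2 fold changes and a median of −0.13. Ctnnb1, the beta-catenin gene, was at 1494 to 1633 CPM in female and 1394 to 1532 CPM in male libraries. Plekha7, whose product joins p120 catenin to microtubules at the zonula adherens, had the smallest p of the list. It was at 48.8, 40.3 and 46.9 CPM in female and 17.6, 14.0 and 15.8 CPM in male libraries, without overlap and with little spread. Its log2 fold change of −1.52 (SE 0.30) narrowly missed the threshold (edgeR adjusted p = 0.0717), and it was lower past it with the GC content and length offset (edgeR adjusted p = 0.0239) and by DESeq2 (adjusted p = 0.000147). Ctnna2, the neural alpha-catenin gene, also separated, at 3.74 to 4.45 CPM in female and 1.19 to 1.53 CPM in male libraries (log2 fold change −1.54, SE 0.35, edgeR adjusted p = 0.113). DESeq2 called Ctnna2 lower (adjusted p = 0.00561), and so did the fit with the offset (edgeR adjusted p = 0.0212). Ctnnd2, of the same list, separated upwards, at 3.20 to 4.80 CPM in female and 6.62 to 12.6 CPM in male libraries. Its log2 fold change was 1.19 (SE 0.39, edgeR adjusted p = 0.321). Neither DESeq2 (adjusted p = 0.0935) nor the offset fit (edgeR adjusted p = 0.134) called it. Arvcf overlapped between the sexes and was lower past the threshold with the offset (log2 fold change −1.05, SE 0.18, edgeR adjusted p = 0.0181). Ctnnb1, Ctnna2, Ctnnd2 and Arvcf were named after their values were seen.

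Among nectins, which start adhesion beside cadherins, 3 of 4 were tested, all with negative log2 fold changes and a median of −0.50. Nectin1 had the smallest p, at 28.8 to 51.8 CPM in female and 11.4 to 26.1 CPM in male libraries (log2 fold change −1.09, SE 0.43, edgeR adjusted p = 0.493; adjusted p = 0.0336 with the GC content and length offset). Of 18 large and other cadherins 17 were in the files and 13 were tested, with a median of 0.15. Fat2, a giant cadherin, had the smallest p, at 1.29 to 3.84 CPM in female and 0.395 to 0.574 CPM in male libraries (log2 fold change −2.48, SE 0.53, edgeR adjusted p = 0.101). Fat4, a giant cadherin of planar polarity, and Clstn2, a calsyntenin, were higher in every male than in every female library. Their log2 fold changes were 1.68 (SE 0.52) and 1.79 (SE 0.50), with edgeR adjusted p = 0.284 and 0.206. DESeq2 called both higher (adjusted p = 0.0405 and 0.0152) and Fat2 lower (adjusted p = 0.00268), and the offset fit called Fat4 (edgeR adjusted p = 0.00600). Of 8 desmosomal genes 6 were tested, with a median of −0.49. Pkp1, a plakophilin of the desmosomal plaque, went the other way, at 0.0400 to 0.148 CPM in female and 0.612 to 0.939 CPM in male libraries (log2 fold change 3.21, SE 0.58, edgeR adjusted p = 0.0609). It rests on 1 to 3 counts per female and 16 to 22 per male library. DESeq2 called Pkp1 higher (adjusted p = 0.00571), and so did the offset fit (edgeR adjusted p = 0.0185).

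Of 6 transcription factors of epithelial-mesenchymal transition, which repress Cdh1 and induce Cdh2 in many settings, 5 were tested, with 3 positive and 2 negative log2 fold changes, and Zeb1 was listed with 0 counts in all libraries. Which annotation was counted is not known, so this 0 does not show whether Zeb1 was expressed. Twist1 had the smallest p, at 38.7 to 48.5 CPM in female and 17.7 to 30.4 CPM in male libraries (log2 fold change −0.98, SE 0.34, edgeR adjusted p = 0.374). Snai1 and Zeb2 went the other way, at 1.21 (SE 0.54) and 1.05 (SE 0.81) on the log2 scale. With the GC content and length offset both were higher past the threshold (edgeR adjusted p = 0.0311 and 0.00749), and Twist1 was not past it (0.154). Of 6 sheddases and convertases, which cut cadherins at the surface or mature them, all were tested, with a median of 0.10. Furin, which cleaves the propeptide of classical cadherins, had the smallest p, at 55.7, 115.0 and 99.3 CPM in female and 157.7, 389.0 and 331.3 CPM in male libraries, without overlap (log2 fold change 1.70, SE 0.48, edgeR adjusted p = 0.219). DESeq2 called Furin higher (adjusted p = 0.0205), and so did the fit with the offset (edgeR adjusted p = 0.0274).

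Marker lists of other cell types were read beside these results, for cells that may have entered the sort. Epcam, a duct epithelium marker, fell from 13.7 ± 3.08 to 2.58 ± 0.477 CPM (edgeR adjusted p = 0.0381), 1 of 8 tested epithelial markers to pass, in the same direction as Cdh4. Cldn7 and Cdh1 went the other way, at 1.03 and 0.19 on the log2 scale. Cldn6, Krt8, Krt18, Krt19 and Pax8 lay between −0.40 and −0.04. The summed level of 8 neuron and Schwann cell markers was 15.4 to 30.2 CPM in female and 67.6 to 76.6 CPM in male libraries, most of it Stmn2 in male, in the same direction as Pcdh9 and Pcdh17. Stmn2 was higher past the threshold (log2 fold change 2.50, SE 0.33, edgeR adjusted p = 0.0253), 1 of 4 tested markers of the list to pass. With the GC content and length offset Stmn2 did not pass (edgeR adjusted p = 0.0561). Tubb3 was at 1.35 (SE 0.69) and Elavl4 at −0.24 (SE 0.93) on the log2 scale. Sox10, also on the list, held 4 female and 24 male counts and was not tested, with every male library above every female one. Foxd3, a defining marker of neural crest, was listed with 0 counts in all libraries. This 0 does not show its absence, because the annotation counted is not known. Sertoli cell markers summed to 21.9 to 30.8 CPM in female and 85.4 to 140.1 CPM in male libraries, kidney markers, in the direction of Cdh4, Cdh6 and Cdh16, to 118.4 to 199.0 and 58.8 to 99.6 CPM, nearly all of it Sall1, mesothelium markers to 588.5 to 801.0 and 516.4 to 622.1 CPM, and macrophage markers to 5.61 to 10.3 and 6.45 to 11.1 CPM. Of these lists, 3 of 8 Sertoli markers and 1 of 3 tested kidney markers, Gdnf, rose, against the direction of the kidney sum, and no mesothelium or macrophage marker passed. Umod, a kidney tubule gene, was listed with 0 counts in all libraries, which for the same reason as for Foxd3 does not show its absence. The part of such cells in the differences of the members was not tested.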

How the data were processed

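RNA of YFP-sorted cells was sequenced in 3 female and 3 male libraries, per the labels' protocols. The authors deposited raw counts per Ensembl gene. Per the submitters' processing notes the tools were TopHat, HTSeq and DESeq and the build was mm9, and no version or role of a tool is stated there. Which annotation was counted, and with which strand setting, is not given in the sources used here. Symbols, transcript lengths, GC content and gene order came from GENCODE M21 on GRCm38, another build, so no coordinates are printed except those of RefSeq promoters. A symbol was found for 32919 of 37991 identifiers. Summary lines that name no gene were left out. Of the counts placed uniquely, 3.53% to 18.2% per library fell on no counted feature. This share was 17.5% in female and 18.2% in male replicate 1, and 3.53% to 8.65% in the other libraries.

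Analysis ran in R 4.3.3. The filter filterByExpr kept 15227 genes. These were scaled by TMM, and edgeR 4.0.16 fitted sex alone by robust quasi-likelihood. The tests are two-sided, and p-values were adjusted by Benjamini and Hochberg over all of these genes. The size of each log2 fold change divided by the square root of its F statistic gave the standard error. The GC content and length offset used splines with 5 degrees of freedom; 96.4% of tested genes had a GC value. DESeq2 1.42.0 and limma 3.58.1 (voom) were alternatives, and the fits were checked on simulated data.

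The members and lists were chosen with earlier results of these data known. Values per library are given for members past the threshold in any fit, or separated between the sexes with an absolute log2 fold change of at least 1, and for the 2 members of each class highest per kilobase. Partner lists are read by their members past the threshold or else by the member with the smallest p. Ctnnb1, Ctnna2, Ctnnd2, Arvcf, Snai1, Zeb2, Fat4 and Clstn2 were added after their values were seen. A comparison of member proteins was planned and not made, because no protein table was used here.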

Additional observations from a re-analysis of the deposited data

How the results depend on the processing

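The number of members lower in male was 1 by edgeR and 0 without any single library, and 0 to 1 when both libraries of a replicate number were left out, a choice added after the data were seen (1 without replicate 1). The number higher was 0 in all of these. Of all genes tested, 1.12% were called without male replicate 1 and at most 0.0905% without any other single library. Without replicate 1, 2 or 3 in both sexes the shares were 2.37%, 0% and 0%, in that order. DESeq2 called 1 higher and 2 lower (5.06% of all genes), and the GC content and length offset 2 higher and 1 lower (5.94%). Fitting the replicate number as a replicate block called 6 members higher and 8 lower, and with the offset 6 and 9, where 27.3% and 29.0% of all genes were called against 1.23%. The labels name no litter, batch or day behind a number, so the numbers were not taken as pairs. Deviations of same-numbered male and female libraries correlated over genes at 0.927, 0.852 and −0.069 for replicates 1 to 3. Female replicate 3 correlated best with male replicate 1 (0.222). Deviations were taken from the mean of each sex, so these correlations depend on each other. They cannot decide whether the numbers are pairs. Scaling by RLE or upper quartile, the filters and limma-voom kept both numbers. Cdh11 changed sign, to 0.11 with the offset, 0.076 with block and offset, 0.41 without female replicate 1, 0.34 and 0.07 without male replicates 2 and 3, and 0.05 without replicate 3 in both sexes, on the log2 scale and with no call (−0.79 to 0.41 when single libraries were left out); the cause was not tested. Over all settings 19 of 27 tested members kept their sign, and Cdh7, Cdh8, Cdh10, Cdh15, Cdh18, Pcdh7 and Pcdh20 took both signs besides Cdh11, none of them past the threshold. Low counts limit Cdh26 and the male level of Cdh4, and 3 libraries per sex limit all calls.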

Other observations

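Several members lie next to each other in the reference gene order (GRCm38, protein-coding genes only), and neighbours often had unlike levels. Cdh11 lies between Cdh8 and Cdh5. Over all libraries Cdh11 had a mean of 120.0 CPM per kilobase and Cdh8 of 0.502. Cdh26 and Cdh4 are neighbours with log2 fold changes of opposite sign, 1.66 (SE 0.86) and −3.16 (SE 0.44), of which Cdh4 alone passed. Pcdh20 and Pcdh9 are neighbours too, with log2 fold changes of 0.10 (SE 0.69) and 2.51 (SE 0.90). Cdh6, Cdh9, Cdh10 and Cdh12 follow each other without another protein-coding gene between them, and of the 4, Cdh6 and Cdh10 had enough counts for the test.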
